A study of Mus musculus with 4 samples.

Results

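Neural retina marker genes are genes whose RNA marks the light-sensing tissue behind the lens rather than the lens. RNA of 9 such genes was looked for on arrays made from newborn mouse lenses. Every probe set whose platform annotation named exactly 1 of the 9 genes was taken, which gave 16 probe sets of 45037 (8 genes of 18193). These were 2 probe sets each for Crx, Neurod1, Atoh7 and Stmn2, 3 each for Neurod4 and Elavl3, and 1 each for Rcvrn and Otx2. Pou4f2 was not analysed here. The samples were whole lenses of mice lacking Hsf4, the heat shock transcription factor 4 gene, and of wild-type mice, with 2 arrays per group. Per the labels all were males of the 129S3 background at postnatal day 0.5. The sources used here do not describe the knockout allele, nor whether an array held 1 animal or a pool. The p-values therefore reflect only array-to-array spread, part of which may be technical.

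In the developing retina, dividing progenitors leave the cell cycle and become neurons and photoreceptors in a fixed order, and rods are still being made around birth. Atoh7, Neurod1 and Neurod4 encode basic helix-loop-helix transcription factors that act around that step. Atoh7 is needed for retinal ganglion cells, Neurod1 for photoreceptor and amacrine development, and Neurod4 acts in amacrine and bipolar development. Otx2 is a homeodomain factor that starts the photoreceptor programme and acts upstream of the related factor Crx, and Rcvrn encodes recoverin, a calcium sensor of photoreceptors. Elavl3 is an RNA-binding protein of neurons, and Stmn2 is a microtubule regulator of growing axons. Neither of the last pair is confined to the retina, and the other members need not be either.

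The 250 bases upstream of the annotated start are printed here for 4 members. Crx, Neurod1 and Neurod4 were low together on 1 array, as described below, and Atoh7 was not. The sequences are RefSeq's on build GRCm38.p6 and read 5′ to 3′ on the strand of the gene. They lie at chr7:15879956-15880205 on the minus strand for Crx, chr2:79456637-79456886 on the minus strand for Neurod1, chr10:130280255-130280504 on the minus strand for Neurod4 and chr10:63099535-63099784 on the plus strand for Atoh7. Capitals mark TAATCC, the motif bound by Crx and Otx2, on either strand (read as GGATTA on the other), and CANNTG, the E-box of basic helix-loop-helix factors, which reads alike on both strands.
Crx: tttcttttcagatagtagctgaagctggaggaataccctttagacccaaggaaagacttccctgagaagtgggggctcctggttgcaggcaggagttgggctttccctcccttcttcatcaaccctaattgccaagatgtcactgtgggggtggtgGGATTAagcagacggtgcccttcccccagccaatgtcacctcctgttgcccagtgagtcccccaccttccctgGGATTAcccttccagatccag
Neurod1: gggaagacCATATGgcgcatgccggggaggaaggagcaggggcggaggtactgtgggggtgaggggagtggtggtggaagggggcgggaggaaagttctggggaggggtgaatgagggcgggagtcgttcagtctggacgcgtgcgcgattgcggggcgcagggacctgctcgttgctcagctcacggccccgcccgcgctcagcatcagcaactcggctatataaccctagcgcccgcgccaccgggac
Neurod4: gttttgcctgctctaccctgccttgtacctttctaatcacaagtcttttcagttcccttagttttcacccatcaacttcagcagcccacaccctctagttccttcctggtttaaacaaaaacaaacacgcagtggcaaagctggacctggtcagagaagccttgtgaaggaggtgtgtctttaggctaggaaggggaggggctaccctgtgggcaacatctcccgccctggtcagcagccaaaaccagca
Atoh7: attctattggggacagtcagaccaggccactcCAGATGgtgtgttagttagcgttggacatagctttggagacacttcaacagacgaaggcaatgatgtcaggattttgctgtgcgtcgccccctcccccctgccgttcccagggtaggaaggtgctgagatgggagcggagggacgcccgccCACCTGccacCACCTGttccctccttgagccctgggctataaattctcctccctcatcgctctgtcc

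The Crx sequence held TAATCC in 2 places and no CANNTG. The Neurod1 sequence held 1 CANNTG, the Atoh7 sequence 3 and the Neurod4 sequence neither motif. Of the 32851 promoters in the same table, 6.25% held TAATCC and 66.2% held CANNTG in the same 250 bases. Of the members whose sequences are not printed, Otx2 held 1 CANNTG and Elavl3 held 2, both without TAATCC. The table lists 4 starts for Otx2 and 2 for Neurod4, and the first listed was used. A match is a description of the letters and is not evidence of binding.

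Levels are given as quantile-normalized intensities, on a linear scale that was made equal across the arrays. A change is the knockout mean minus the wild-type mean of log2(intensity + 16), given with its standard error (SE). Adding 16 shrinks the changes of dim probe sets. Only probe sets with a mean at or above the median of all, about 13.0 as an intensity, were tested, and all 16 member probe sets passed that filter. Knockout array 2 stood apart in several measures. Its deposited median intensity was 6.56, against 18.4 on knockout array 1 and 10.4 to 21.3 on the wild-type arrays. Its 18S ribosomal RNA control probe set of the middle region measured 3636, against 16.7 on knockout array 1 and 14.3 and 432 on wild-type arrays 1 and 2. Its 5′ 18S control was not set apart in this way: that signal was 14.3 and 7309 for knockouts 1 and 2, against 1.52 and 6898 for wild types 1 and 2, so it was high in both arrays numbered 2. The 3′ to 5′ signal ratio for actin was 1.89 on knockout array 2, against 1.53 on knockout array 1 and 1.51 to 1.67 on the wild-type arrays. Hsf4 itself measured 1212 and 413 on knockout arrays 1 and 2 and 505 and 138 on wild-type arrays 1 and 2, so the probe set did not show a loss of the targeted gene. The position of that probe set relative to the deletion is not stated in the labels, so it checks nothing, and directions below go by the labels. The brightest of the probe sets for Xist, a female-expressed RNA, measured 260 and 9.01 on knockout arrays 1 and 2 and 605 and 58.0 on wild-type arrays 1 and 2, which goes against the male label for number 1.

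For the labelled tissue, 13 lens genes were measured, led by the crystallin gene Cryba1, and all 13 lay above the filter. That filter is the median of all probe sets, so passing it is a weak check. The lens genes summed to 66616 and 66735 on the knockout arrays and to 68368 and 66638 on the wild-type arrays. Quantile normalization gives the brightest ranks the same values on every array, and the brightest crystallin genes hold such ranks. Near-equal sums were therefore largely set by the scaling and do not measure lens content. Among them Bfsp2 measured 60.1 and 2907 on knockout arrays 1 and 2 and 180 and 268 on wild-type arrays 1 and 2. The cause of its high value on knockout array 2 was not tested. The 8 retina members, each by its brightest probe set, summed to 2452 and 1377 on the knockout arrays and to 2365 and 2594 on the wild-type arrays. The retina sum was therefore low on knockout array 2 and close to the wild-type sums on knockout array 1.

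No member passed the unpaired test between knockout and wild-type arrays. In limma with Benjamini-Hochberg adjustment over 22519 probe sets, 0 of 16 member probe sets had an adjusted p under 0.05, and 0 of 16 had an unadjusted p under 0.05. Over all probe sets tested, 0.0178% passed the adjusted threshold and 2.33% the unadjusted one. The adjusted p was 1 for each of the 16. An exact permutation test of 2 against 2 arrays cannot go below a two-sided p of 0.333. The median log2 change of the members was -0.43, against -0.0083 over all probe sets tested. It was -0.075 between the arrays numbered 1 and -0.54 between the arrays numbered 2, against 0.00011 and -0.018 over all probe sets tested.

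**Figure D1:**
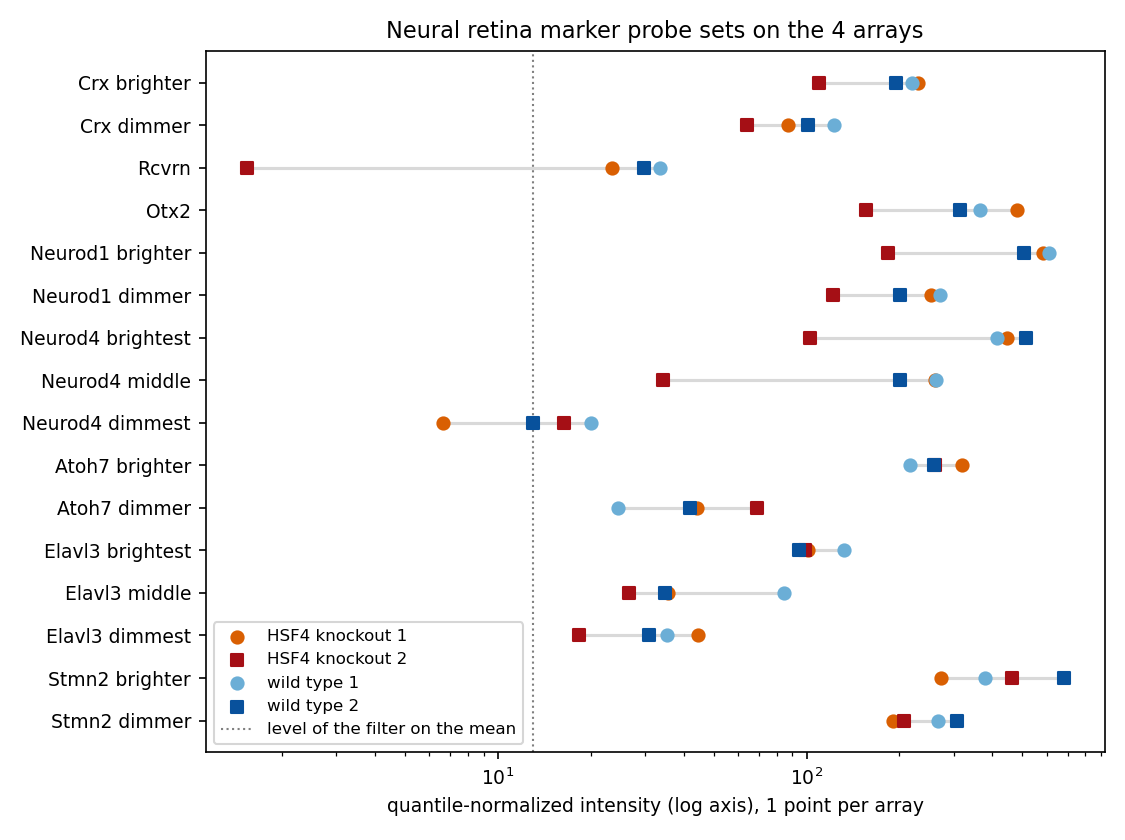
Quantile-normalized intensity of the 16 member probe sets, with 1 point per array, on a log axis. Knockout array 2 (dark red squares) is the lowest point for 10 of the 16, among them the probe sets of Crx, Rcvrn, Otx2 and Neurod1 and the brighter pair of Neurod4, while those of Atoh7 and Stmn2 are not lowest there.

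The basic helix-loop-helix factors held both the widest difference and the opposite direction. The brightest Neurod4 probe set measured 445 and 103 on knockout arrays 1 and 2 and 413 and 513 on wild-type arrays 1 and 2. Knockout array 1 lay between the wild-type arrays and knockout array 2 lay far below them, so the groups overlapped. The log2 change was -1.02 (SE 0.53, 95% interval -2.23 to 0.18), with 0.10 between the arrays numbered 1 and -2.15 between the arrays numbered 2. The middle Neurod4 probe set was also lowest on knockout array 2, with knockout array 1 between the wild-type arrays. It measured 260 and 34.2 on knockout arrays 1 and 2 and 262 and 201 on wild-type arrays 1 and 2 (log2 change -1.06, SE 0.64). Relative to the mean of the other 3 arrays, knockout array 2 was lower by a log2 difference of -1.99 for the brightest and -2.35 for the middle probe set, while those 3 arrays spanned 0.30 and 0.36. The dimmest Neurod4 probe set lay near the filter, with 6.66 and 16.4 on the knockout arrays and 20.1 and 13.0 on the wild-type arrays, and was not lowest on knockout array 2.

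Neurod1 followed the same pattern with a smaller difference. Its brighter probe set measured 583 and 183 on knockout arrays 1 and 2 and 608 and 507 on wild-type arrays 1 and 2. The log2 change was -0.73 (SE 0.46), with -0.060 within number 1 and -1.39 within number 2. Its dimmer probe set measured 253 and 121 on the knockout arrays and 270 and 201 on the wild-type arrays (log2 change -0.38, SE 0.38). In both probe sets knockout array 1 lay inside the wild-type range and knockout array 2 below it.

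Atoh7 did not share that pattern. Its brighter probe set measured 318 and 261 on knockout arrays 1 and 2 and 216 and 259 on wild-type arrays 1 and 2. The dimmer one measured 44.1 and 69.0 on the knockout arrays and 24.6 and 41.8 on the wild-type arrays. In each of them both knockout arrays were above both wild-type arrays, with log2 changes of 0.27 (SE 0.30) and 0.56 (SE 0.34) that did not pass. With values as deposited the change of the brighter Atoh7 probe set was -0.33, and with median centring it was -0.16, where the median over all probe sets tested was -0.42 and -0.25. Under both it stayed above that median, as it did in the quantile-normalized values.

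Among the photoreceptor genes, Otx2 measured 479 and 156 on knockout arrays 1 and 2 and 364 and 315 on wild-type arrays 1 and 2. Knockout array 1 was the highest of the 4 and knockout array 2 the lowest, so the knockout arrays lay on both sides of the wild-type arrays (log2 change -0.28, SE 0.45). The brighter Crx probe set measured 229 and 110 on the knockout arrays and 220 and 195 on the wild-type arrays (log2 change -0.35, SE 0.37). Its dimmer probe set measured 87.0 and 64.01 on the knockout arrays and 123 and 101 on the wild-type arrays. There both knockout arrays were below both wild-type arrays (log2 change -0.49, SE 0.31). Rcvrn measured 23.5 and 1.54 on the knockout arrays and 33.5 and 29.7 on the wild-type arrays. Knockout and wild-type arrays did not overlap, and the value on knockout array 2 was far below the filter level of 13.0 (log2 change -0.85, SE 0.42, 95% interval -1.79 to 0.08). Between the arrays numbered 2 the log2 change was -1.38 for Rcvrn, -0.94 for Otx2, and -0.74 and -0.55 for the Crx probe sets. Between the arrays numbered 1 these were -0.32, 0.38, 0.053 and -0.43.

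Of the general neuronal members, Stmn2 changed by like amounts within both numbers and Elavl3 did not. The dimmer Stmn2 probe set measured 191 and 207 on the knockout arrays and 267 and 308 on the wild-type arrays, without overlap (log2 change -0.50, SE 0.29). The brighter one measured 274 and 464 on knockout arrays 1 and 2 and 378 and 681 on wild-type arrays 1 and 2, so in both groups array 2 was brighter than array 1. The changes of this probe set were -0.44 within number 1 and -0.54 within number 2, and those of the dimmer one were -0.45 and -0.54. Stmn2 was thus lower on the knockout array of both numbers by similar amounts, and neither probe set passed. The brightest Elavl3 probe set measured 101 and 98.7 on the knockout arrays and 132 and 94.4 on the wild-type arrays (log2 change -0.14, SE 0.31). The middle and dimmest Elavl3 probe sets had changes of -0.61 (SE 0.38) and -0.11 (SE 0.36). Within numbers 1 and 2 the changes were -0.34 and 0.055 for the brightest, -0.97 and -0.25 for the middle and 0.24 and -0.45 for the dimmest, so the Elavl3 probe sets shared no order between the numbers. The middle one was set apart by wild-type array 1, which measured 84.8, against 35.5 and 26.6 on the knockout arrays and 34.7 on wild-type array 2.

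**Figure D2:**
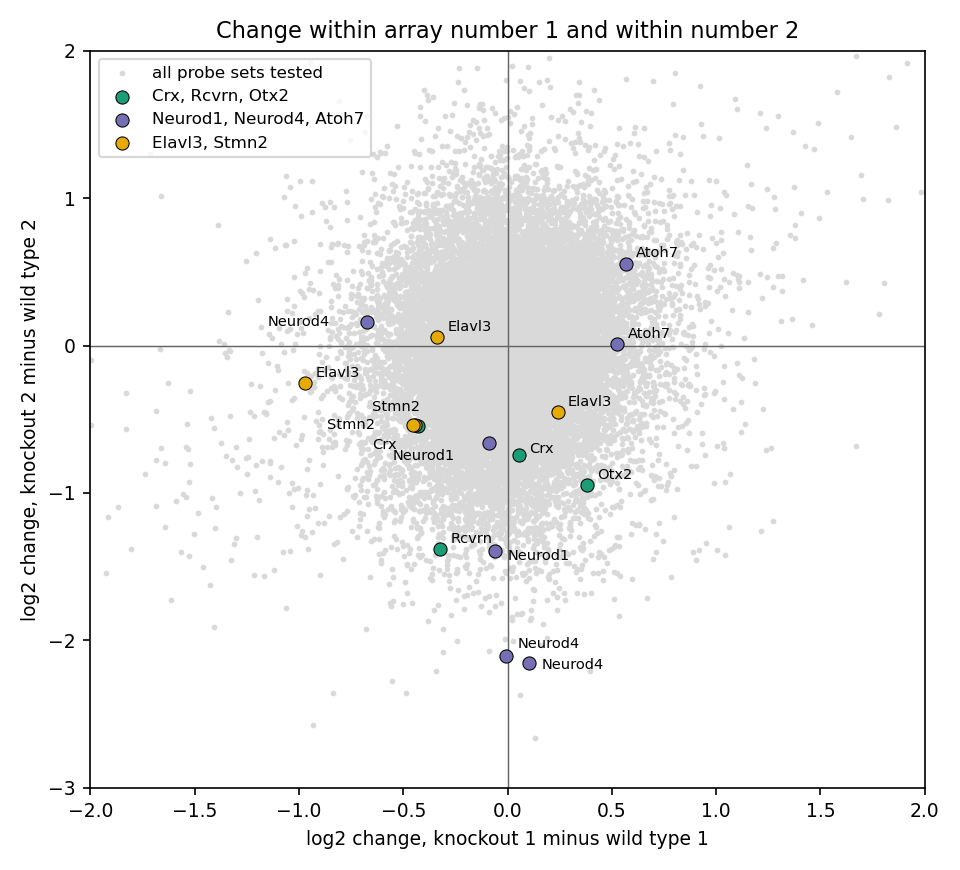
Log2 change of each member probe set between the arrays numbered 1 (horizontal axis) and between the arrays numbered 2 (vertical axis), over the cloud of all 22519 probe sets tested (53 of which lie outside the axes). The members spread along the vertical axis, with the brighter Neurod4 pair below -2 and at about 0 horizontally, while Stmn2 is lower along both axes.

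Counted over the 16 probe sets, the low values gathered on 1 array. Knockout array 2 was the lowest of the 4 arrays for 10 of 16 member probe sets, against 33.4% of all probe sets tested and 33.7% of those within the members' range of mean level. Between the arrays numbered 2, 4 of 16 were at least 2-fold lower (Rcvrn, 1 probe set of Neurod1 and 2 of Neurod4), against 4.35% of all and 4.64% of those in the same range of mean level. Between the arrays numbered 1, 0 of 16 were at least 2-fold lower, against 0.724% of all. Probe sets of 1 gene are not separate genes. By the brightest probe set of each gene, knockout array 2 was lowest for 5 of 8 members, against 33.5% of all genes. By the same probe sets 3 of 8 were at least 2-fold lower between the arrays numbered 2, against 4.44% of all genes. Of the 9 probe sets of Crx, Rcvrn, Otx2, Neurod1 and Neurod4, knockout array 2 was lowest for 8. It was lowest for 2 of the 5 of Elavl3 and Stmn2 and for neither of Atoh7. The groups did not overlap for 5 of 16 probe sets, 3 lower and 2 higher, which is near the 27% of all probe sets tested. These counts were made after the values had been seen. In RNA of a whole tissue, fewer cells of a type and less RNA per cell cannot be told apart.

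**Figure D3:**
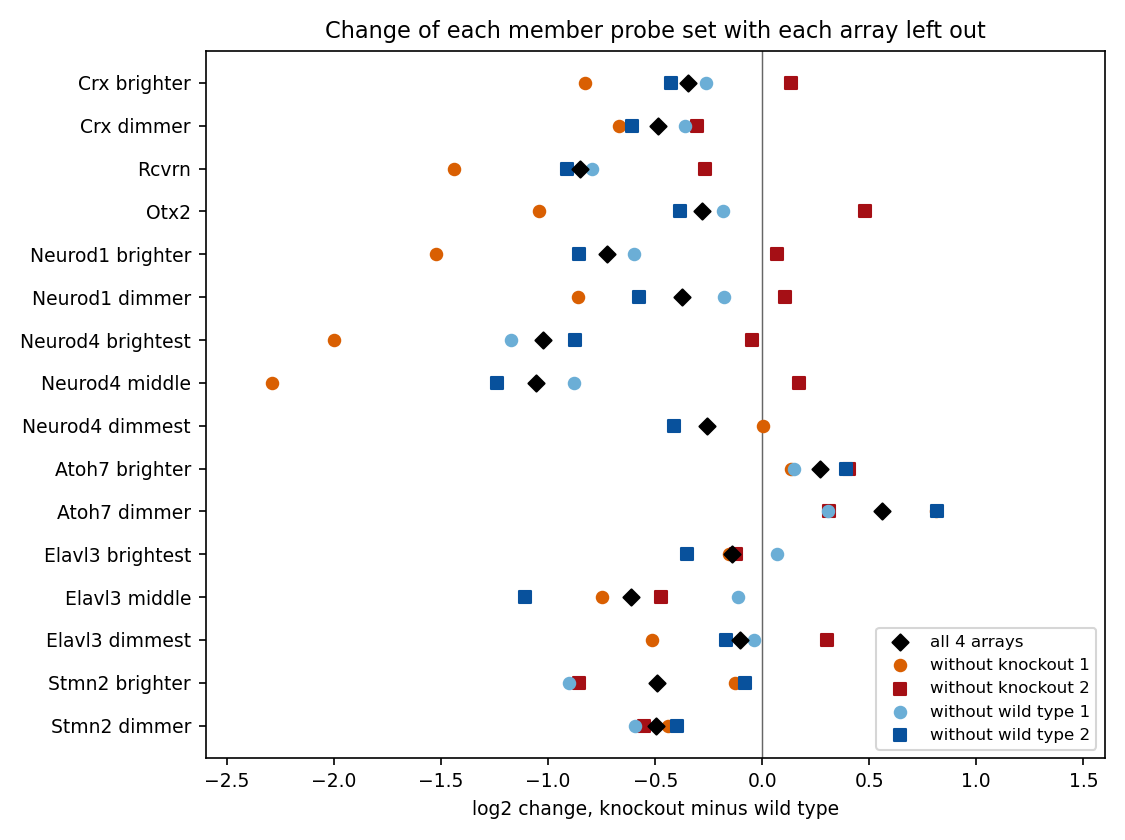
Log2 change, knockout minus wild type, of each member probe set with all 4 arrays (black diamonds) and with each array left out. Without knockout array 2 (dark red squares) the values of the Crx, Rcvrn, Otx2, Neurod1 and brighter Neurod4 probe sets move toward or past 0, and without knockout array 1 (orange circles) they move further below 0. The dimmest Neurod4 probe set has no point where dropping knockout array 2 or wild-type array 1 put it under the filter.

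Leaving out arrays decided the size of the changes. Without knockout array 2 the median log2 change of the members was 0.068 and 0 of 15 probe sets passed, against 0.422% of all. The changes then were -0.047 and 0.17 for the brighter Neurod4 probe sets, 0.068 and 0.11 for Neurod1 and 0.48 for Otx2. Those of the brighter and dimmer Stmn2 probe sets were -0.86 and -0.55, against -0.13 and -0.44 without knockout array 1. Without wild-type array 2 the Stmn2 changes were -0.080 and -0.40, so that of the brighter probe set depended on the arrays kept. Without knockout array 1 the median was -0.71 and 4 of 16 passed as lower, against 1.98% of all. These were the brightest Neurod4 probe set (log2 change -2.001, limma adjusted p = 0.000684), the middle one (-2.29, adjusted p = 5.95e-05), the brighter of Neurod1 (-1.52, adjusted p = 0.0151) and Rcvrn (-1.44, adjusted p = 0.0103). Without wild-type array 1, 0 of 15 passed, and without wild-type array 2, 0 of 16, against 0.0222% of all in each case. The fit without knockout array 1 sets 1 knockout array against 2 wild-type arrays and assumes that the lone array varies like the wild-type pair. Knockout array 2, which held these low values, also had the highest middle-region 18S signal, the dimmest overall signal and the highest actin ratio. Wild-type array 2, without the low values, had 18S signals of 6898 in the 5′ region and 432 in the middle region. The part of these measures in the result was not tested.

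Other genes of the retina were taken from 6 lists, each gene by its brightest probe set, with 71 genes above the filter. In limma 0 of 71 passed, against 0.0259% of 11595 genes by the same probe sets, and 5 had an unadjusted p under 0.05, against 2.32% of all genes. Of the 12 genes of rods and cones, knockout array 2 was lowest for 9, against 33.5% of all genes, and 6 were at least 2-fold lower between the arrays numbered 2, against 4.44%. The median log2 change of that list was -0.98 within number 2 and -0.0084 within number 1.

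Sag, the arrestin of rods, measured 126 and 12.3 on knockout arrays 1 and 2 and 119 and 243 on wild-type arrays 1 and 2 (log2 change -1.56, SE 0.65, adjusted p = 1). Knockout array 1 lay inside the wild-type range and knockout array 2 far below it. Opn1sw, the short-wavelength cone opsin, measured 61.8 and 1.69 on the knockout arrays and 132 and 89.5 on the wild-type arrays (log2 change -1.75, SE 0.59, adjusted p = 1). Its groups did not overlap, with -0.93 within number 1 and -2.58 within number 2. Not every gene of the list was low there. Gngt2, a transducin subunit of cones, measured 13.7 and 51.1 on the knockout arrays and 15.6 and 14.9 on the wild-type arrays. Gngt2 and the genes Nrl and Prdm1 were chosen for mention after their values were seen. Nrl, the rod-determining factor, measured 308 and 85.1 on the knockout arrays and 282 and 320 on the wild-type arrays, and Prdm1, a repressor in photoreceptor precursors, measured 216 and 56.3 on the knockout arrays and 213 and 148 on the wild-type arrays.

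**Figure D4:**
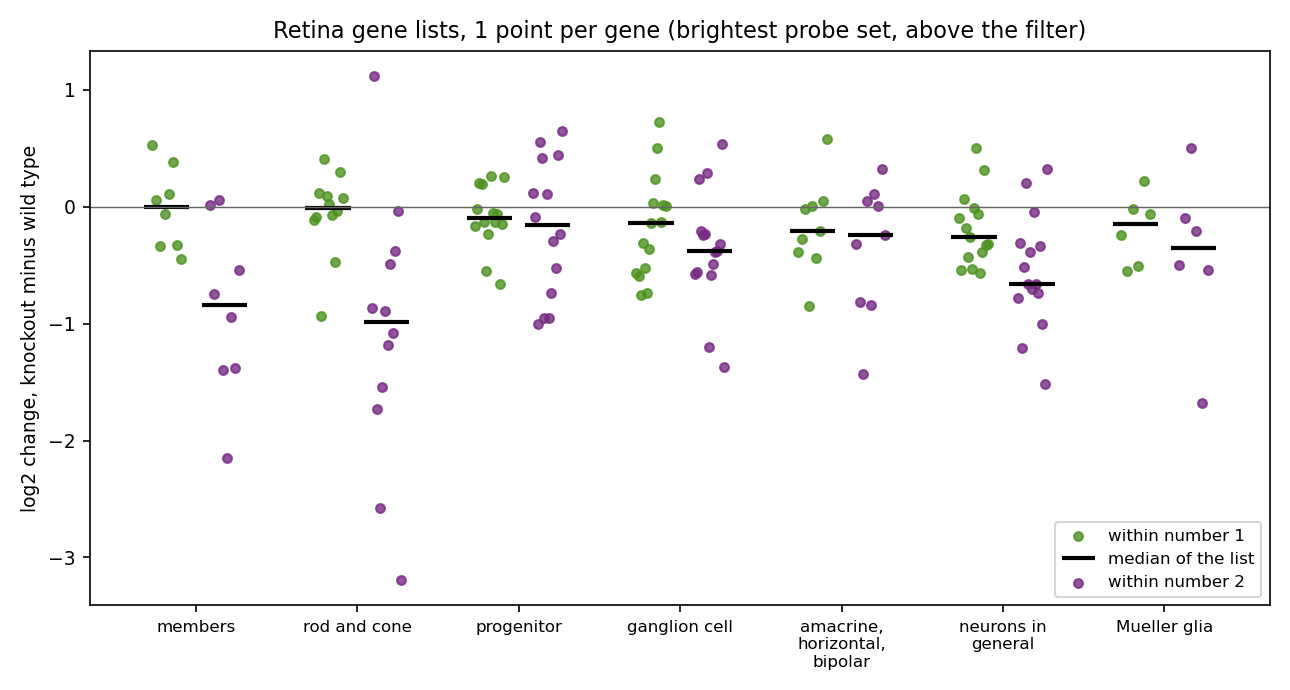
Log2 change, knockout minus wild type, of each gene of the members and of the 6 other lists within number 1 (green, left) and within number 2 (purple, right), with the list medians as black bars. The medians within number 1 lie between -0.26 and 0, and those within number 2 reach -0.84 for the members and -0.98 for rod and cone genes.

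The remaining lists had smaller shifts within number 2. The 14 progenitor genes had medians of -0.095 within number 1 and -0.16 within number 2. Knockout array 2 was lowest for 7 of them, against 33.5% of all genes. Between the arrays numbered 2, 1 was at least 2-fold lower, against 4.44% of all genes. In that list Hes5, a Notch target, measured 83.9 and 86.0 on the knockout arrays and 131 and 182 on the wild-type arrays (log2 change -0.75, SE 0.31, adjusted p = 1). Sox9, a factor of progenitors and glia, measured 39.7 and 55.2 on the knockout arrays and 30.6 and 29.6 on the wild-type arrays (0.45, SE 0.31). In both the groups did not overlap.

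The 15 ganglion cell genes had medians of -0.14 and -0.38 within numbers 1 and 2. Knockout array 2 was lowest for 4 of them, against 33.5% of all genes. Nefl, the light neurofilament protein, measured 533 and 314 on the knockout arrays and 591 and 745 on the wild-type arrays (log2 change -0.67, SE 0.32). Ebf3, a helix-loop-helix factor of neurons, measured 76.2 and 84.5 on the knockout arrays and 123 and 132 on the wild-type arrays (-0.58, SE 0.30). The Ebf3 change was alike within both numbers, at -0.60 and -0.56. The 9 genes of amacrine, horizontal and bipolar cells had medians of -0.21 and -0.24. In that list Gad1, the enzyme that makes GABA, measured 74.1 and 19.2 on the knockout arrays and 75.1 and 79.2 on the wild-type arrays, and Calb2, calretinin, had a log2 change of -0.55 (SE 0.35).

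The 15 genes of neurons in general had medians of -0.26 within number 1 and -0.66 within number 2. Knockout array 2 was lowest for 9, against 33.5% of all genes, and 10 were lower within both numbers, against 27.5% of all genes. Snap25, a protein of synaptic vesicle fusion, measured 271 and 255 on the knockout arrays and 410 and 437 on the wild-type arrays. Its change of -0.65 (SE 0.28, adjusted p = 1) was -0.57 within number 1 and -0.74 within number 2, which resembles Stmn2 rather than Neurod4. Syt1, the calcium sensor of those vesicles, had -0.33 and -1.52. Of the 6 Mueller glia genes knockout array 2 was lowest for 3, against 33.5% of all genes. Rlbp1, a retinal-binding protein of these glia, measured 125 and 31.4 on the knockout arrays and 105 and 136 on the wild-type arrays, while Glul, glutamine synthetase, had a change of -0.36 (SE 0.27).

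The lists moved unevenly when knockout arrays were left out. With knockout array 2 dropped, the rod and cone list had a median log2 change of -0.12, and with knockout array 1 dropped it had -0.85, where the members had 0.068 and -0.71. That of the progenitor list was 0.069 and -0.34. The ganglion cell list went the other way, with -0.31 and -0.17 in the same order. The list of neurons in general had -0.34 and -0.54, and the Mueller glia list -0.12 and -0.32. The list of amacrine, horizontal and bipolar cells had -0.048 and -0.43. Without knockout array 2 limma called 0 of the 71 genes. Without knockout array 1 it called 7, all lower, against 2.05% of all genes called lower in that fit, and 4 of these were of the rod and cone list (Nrl, Opn1sw, Prdm1 and Sag). The others were Thy1, Gad1 and Rlbp1.

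Markers of other cell types on the same arrays are given as measured. The 10 pigment cell genes summed to 1651 and 1696 on the knockout arrays and to 977 and 1696 on the wild-type arrays. Pmel was the brightest, and 8 of the 10 lay above the filter. The 11 striated muscle genes, led by Acta1, summed to 145 and 144 on the knockout arrays and to 2899 and 1432 on the wild-type arrays. The 5 erythroid genes, led by Alas2, summed to 135 and 514 on the knockout arrays and to 91.7 and 158 on the wild-type arrays. Muscle signal was low on both knockout arrays, and erythroid signal was highest on knockout array 2. The sums of the retina members and of the rod and cone genes were low on knockout array 2, but not every retina list was. Ganglion cell genes summed to 1612 and 1774 on the knockout arrays and to 1906 and 2446 on the wild-type arrays. Genes of neurons in general summed to 3152 and 2836 on the knockout arrays and to 4009 and 3954 on the wild-type arrays. That sum was also lowest on knockout array 2, and on both knockout arrays it was below both wild-type arrays. Progenitor genes summed to 4374 and 4479 on the knockout arrays and to 4854 and 4343 on the wild-type arrays. The part of carried-over tissue in the retina values was not tested.

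Genes with the most similar profile were sought over the 4 arrays by the root-mean-square distance between log2 values centred on each gene's mean. The 3 genes nearest to the middle Neurod4 probe set, the member with the largest change, were Fbxo10 (distance 0.12), Leng8 (0.21) and Tulp1 (0.21). Tulp1, a tubby-like protein of photoreceptors, measured 109 and 3.33 on knockout arrays 1 and 2 and 97.6 and 106 on wild-type arrays 1 and 2, a log2 change of -2.66 between the arrays numbered 2. The 5 genes nearest to the mean profile of the 16 member probe sets were Sars2, Osbpl11, Mapk12, Cnr1 and Mical3, at distances of 0.015 to 0.022. With 4 arrays many genes share a profile, and these names carry no test.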

How the data were processed

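RNA of whole newborn lenses was measured on Affymetrix mouse arrays of 45101 probe sets, 2 knockout and 2 wild-type. The intensity values the authors deposited are linear, 1 per probe set and array. The labels do not name the summarising software. Because deposited medians differed (6.56 to 21.3), quantile normalization was applied (limma 3.58.1, R 4.3.3), then 16 was added and log2 taken. The 64 control probe sets were then left out. Of the others, 34945 had 1 gene symbol, 932 several and 9160 none; Entrez IDs updated symbols, and all 8 member genes matched. Probe sets with a mean log2 value of at least 4.86, the median, were tested (22519) with limma's moderated test and a variance trend, with Benjamini-Hochberg adjustment and a threshold of 0.05. The procedure was tested on simulated data with independent arrays of like spread and changes shared by both knockout arrays. That simulation held no array standing apart and no link between same-numbered arrays, so it does not cover those features of these data. The members and lists were chosen with earlier results of these data known.

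The text names all members, Hsf4, the brightest gene of the lens and other cell type lists, and from each retina list the genes that passed (at most 4) or otherwise the 2 with the lowest p, plus nearest genes by profile. Xist, Bfsp2, Gngt2, Nrl, Prdm1 and Thy1 fall outside that rule. No detection calls were used here, and the number of arrays limits the precision. The alternatives were 4 other scalings, 2 offsets, 2 filters, no variance trend, the replicate block, 2 ways of combining probe sets, each number alone and leaving out each array.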

Additional observations from a re-analysis of the deposited data

How the results depend on the processing

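The number of probe sets passing the threshold was 4 in the analysis reported. It was 0 without any filter, 0 on the deposited scale and 0 where all probe sets of a gene were averaged, 15 with median centring, 317 with the replicate block, and 5 to 649 with 1 array left out (649 without knockout array 1, 95 without knockout array 2, 5 without either wild-type array). Member probe sets passing were 0 in the analysis reported, 3 with the replicate block, and 0 to 4 with 1 array left out. No call could be made within a single number. Both groups carry the numbers 1 and 2 in the labels, which name no shared litter or day. Deviations from the group mean correlated at 0.43 across probe sets between same-numbered arrays. With the number as a block, the brightest (adjusted p = 0.000241) and middle (adjusted p = 0.00170) Neurod4 probe sets and the brighter Neurod1 probe set (adjusted p = 0.0221) passed in limma, all lower, as did 0.87% of all probe sets. In that order they changed by 0.10, -0.0094 and -0.060 within number 1 and by -2.15, -2.11 and -1.39 within number 2. Their SEs in this fit were 0.21, 0.24 and 0.20, with the variance taken mostly from other probe sets. These p-values therefore do not measure the spread between the numbered pairs. In the 6 other retina lists, 5 of 71 genes passed with the block, all lower (Nrl, Opn1sw, Sag, Nefl and Syt1). The share over all genes was not counted for this fit, and the 0.87% is over probe sets. Within numbers 1 and 2, Sag changed by 0.077 and -3.19 and Nrl by 0.12 and -1.73. Opn1sw, Nefl and Syt1 were lower within both numbers. The limit on the p-values holds for these genes too.

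With 1 array left out, the median log2 change of the members ranged from -0.71 to 0.068. Those values that changed sign ranged from -0.83 to 0.13 for the brighter Crx probe set, -1.04 to 0.48 for Otx2, -1.52 to 0.068 and -0.86 to 0.11 for the brighter and dimmer of Neurod1, -2.29 to 0.17 for the middle and -0.41 to 0.0013 for the dimmest of Neurod4, and -0.35 to 0.071 for the brightest and -0.51 to 0.30 for the dimmest of Elavl3. The positive end came without knockout array 2, except for the dimmest Neurod4 (without knockout array 1) and the brightest Elavl3 (without wild-type array 1). The sign also differed within number 1 for the brighter Crx (0.053), Otx2 (0.38), the brightest Neurod4 (0.10) and the dimmest Elavl3 (0.24), and within number 2 for the dimmest Neurod4 (0.16) and the brightest Elavl3 (0.055). Scaling turned the sign for the dimmest Elavl3 (0.0093 by trimmed mean) and the brighter Atoh7 (-0.33 as deposited, -0.16 with median centring), but neither changed side of the median of all probe sets (0.012, -0.42 and -0.25 in these settings). Of 233 tested values of single members under these settings, 215 kept their direction and their side of the threshold, 7 passed it and 11 changed sign. Of 32 untested values within a number, 6 changed sign. Beyond the arrays left out, the cause was not tested.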
